A study of Homo sapiens with 15 samples.

Results

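The genes described here are 10 that encode proteins of the cell surface, of cell adhesion and of signalling just beneath the membrane: PVRL4, EFNB1, RGMA, CSMD3, PARD6G, CDH10, PCDH17, PCDH18, GPR172B and RGL1. They were picked out of the 23368 genes of an RNA sequencing table because their transcripts differed strongly between Nutlin and DMSO, so those differences chose them and are given below as a description, with no test. All 10 passed the filter on low values, which 14298 genes passed. Current symbols for PVRL4 and GPR172B are NECTIN4 and SLC52A1.

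The cells were of the osteosarcoma line U2OS, in which p53 is wild type. Nutlin, at a dose of 10 µM, blocks the pocket of MDM2 that binds p53, and DMSO was its vehicle. Nutlin and DMSO were each given in 3 states, which the labels call asynchronous, non-released and S-phase cells. Asynchronous cells grew without thymidine and gave 3 Nutlin and 3 DMSO libraries, with a Nutlin exposure whose length the sources used here do not give. Non-released cells (2 Nutlin and 2 DMSO libraries) went through a 2 mM thymidine block of 16 h, 8 h without thymidine and another 16 h of block, which was then kept up. S-phase cells (2 Nutlin and 3 DMSO libraries) were washed free of thymidine after the same blocks and harvested 4 h later. In both blocked states Nutlin or DMSO went in 4 h ahead of the release, or of the time a release would have come, and Nutlin stayed in the medium afterwards. All groups come from 1 cell line, and whether replicates were separate cultures is left unsaid in the labels. The p-values therefore describe the spread among these libraries, which may be technical.

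Cells touch and sort their neighbours through families of membrane proteins. Nectins, cadherins and protocadherins bind partners on the next cell, ephrins bind Eph receptors and signal into both cells, and repulsive guidance molecules act through the receptor neogenin. Such contacts are read inside the cell by polarity complexes, in which PAR6 proteins tie atypical protein kinase C to small GTPases, and by exchange factors that load the GTPase Ral with GTP. p53 is a transcription factor that MDM2 marks for degradation, and it binds pairs of decamer half-sites in DNA.

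Promoter windows are shown for the gene with the largest or 2nd largest Nutlin difference of all genes in each state on the deposited scale, PVRL4, for the gene that went the other way, PCDH18, and for the gene in whose window a p53 half-site was found, RGMA. They are RefSeq sequences of build GRCh38.p14, written 5′ to 3′ on the gene's strand. Windows ran from 250 bases before to 50 bases after each gene start, and 8 of the 10 genes, with 13 windows, had one. GPR172B and CSMD3 had none. The lines for PVRL4 (chr1:161089609-161089808, minus strand) and PCDH18 (chr4:137532545-137532744, minus strand) hold bases −250 to −51. That for RGMA (chr15:93073804-93073833, minus strand) holds bases −153 to −124 of 1 of its windows, with the half-site in capitals.
PVRL4: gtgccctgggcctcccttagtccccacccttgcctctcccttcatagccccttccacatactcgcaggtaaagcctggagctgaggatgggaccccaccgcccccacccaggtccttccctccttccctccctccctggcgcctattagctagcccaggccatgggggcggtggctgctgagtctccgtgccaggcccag
PCDH18: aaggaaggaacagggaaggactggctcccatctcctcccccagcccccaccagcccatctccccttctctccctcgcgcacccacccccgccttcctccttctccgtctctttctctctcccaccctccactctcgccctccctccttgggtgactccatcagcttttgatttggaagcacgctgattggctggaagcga
RGMA: ggcgcagccgGGGCAAGTCTtcaggaagca

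The motif searched for was the p53 consensus half-site of 10 bases, without mismatch, which reads the same on both strands, so that 1 search covers both. It was found in 1 of the 13 windows (7.69%) and in 1 of the 8 genes (12.5%). Among all windows of the same length 2329 of 35116 (6.63%) held it, or 2202 of 27305 genes (8.06%). The share among the members lay near that of all genes, and no match says only that these letters are not in the window. Guanine and cytosine made up 66.5% of the stretch printed for PVRL4 and 61.5% of that for PCDH18.

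Depth, as reads recovered from the deposited table, was 6.05 to 23.38 M reads per library (median 15.93, M standing for mega). At 0 reads a gene lies under 0.128 to 0.496 counts per M by library (3 reads, counting error only), and each of the 10 genes had reads in each library. Of the bone and mesenchymal markers VIM ran from 27800 to 42300 normalised reads (reads scaled to a common library size) and SPARC from 11700 to 15300, while COL1A2 stayed between 0.72 and 8.68. Of 8 blood markers 6 stayed under 7.94 normalised reads in every library, the 3-read limit of the library where it was highest.

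A pair of DMSO libraries stood apart. DMSO asynchronous replicate 3 had the highest value of all libraries for 16 of 18 epithelial markers and 12 of 13 luminal breast markers. Its summed epithelial markers came to 44029 normalised reads, against 12617 to 17671 in the other 14 libraries, and its summed breast markers to 39679, against 15183 to 21123. KRT19 had 7830 normalised reads there and at most 33.9 elsewhere, and CDH1 had 3510 there and at most 98.9 elsewhere. EPCAM reached 423 there and at most 73.7 elsewhere. The p53 targets CDKN1A and MDM2, checks of the Nutlin label, were at 14.10 and 14.77 log2 in this library, against 13.51 to 13.59 and 14.55 to 14.71 in the Nutlin asynchronous libraries, so for both genes it went against its label. In the other 2 states each Nutlin library was above each DMSO library for both genes. DMSO S-phase replicate 2 was the shallowest library and, after the first, the least like its own group (mean r 0.977 over the genes tested). Results that rest on either are given with and without both.

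Values below are the deposited variance-stabilised levels, on a log2 scale that flattens towards low read numbers, with 4.859 for a gene without reads. Differences are Nutlin minus DMSO group means with the standard error (SE) of a limma fit over all 15 libraries, and folds are ratios of mean normalised reads. Where 3 differences or folds follow each other, they are those of asynchronous, then non-released, then S-phase cells. In bulk samples, a change in the number of cells that make a transcript and a change in RNA per cell cannot be told apart. In each state 9 of the 10 genes were higher with Nutlin and PCDH18 was lower, and for each of the 10 the Nutlin libraries did not overlap the DMSO libraries of that state. Median differences of the 10 were 1.67, 1.26 and 1.47, against −0.02, −0.02 and −0.01 over all genes tested. Over all genes tested, limma called (adjusted p under 0.05) 1.91% higher and 0.546% lower with Nutlin in asynchronous cells, 0.874% higher and 0.042% lower in non-released cells, and 1.84% higher and 0.161% lower in S-phase cells. Since the members were picked on these contrasts, nothing is read from that comparison or from the lack of overlap. How many of all genes tested had Nutlin and DMSO libraries without overlap was not counted.

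**Figure D1:**
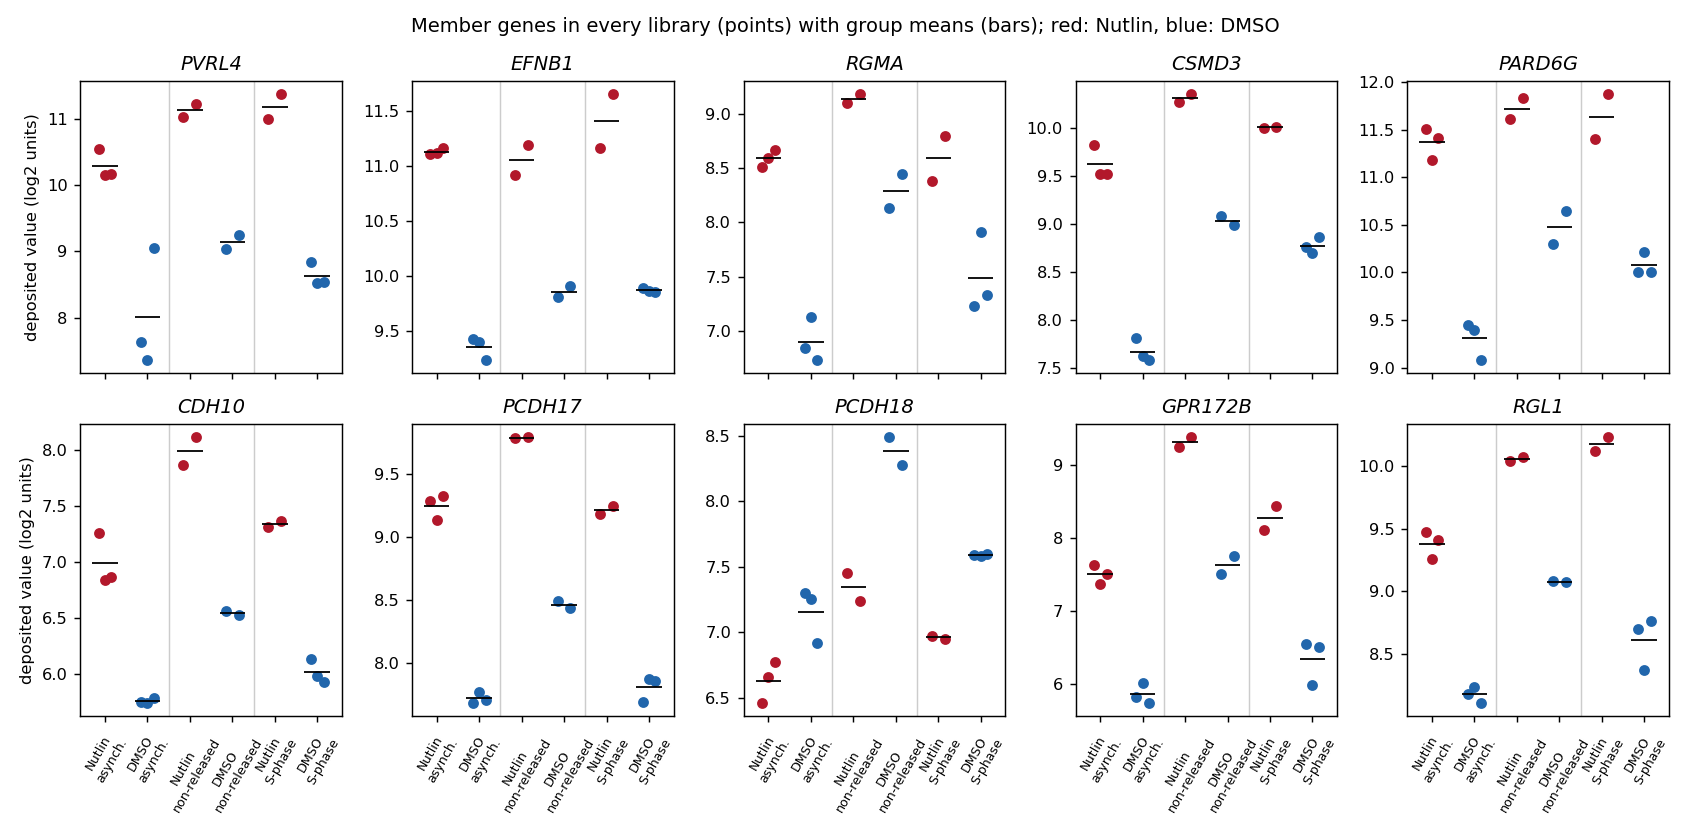
Level of each of the 10 genes (vertical axis, deposited variance-stabilised log2 value) in each library, with Nutlin libraries to the left of DMSO libraries in the 3 states and group means as short lines. In all panels but PCDH18 the Nutlin points lie above the DMSO points of the same state; for PCDH18 they lie below.

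PVRL4 encodes nectin-4, an adhesion molecule of epithelial cells and of several carcinomas. In asynchronous cells PVRL4 was at 10.55, 10.16 and 10.17 log2 in Nutlin libraries, against 7.64, 7.36 and 9.05 in DMSO libraries. The Nutlin replicates lay close together, while DMSO replicate 3, the library rich in epithelial markers, was 1.55 above the mean of the other DMSO replicates yet below every Nutlin library. In non-released cells PVRL4 stood at 11.03 and 11.23 with Nutlin, against 9.04 and 9.25 with DMSO. In S-phase cells PVRL4 stood at 11.00 and 11.37 with Nutlin, against 8.84, 8.52 and 8.54 with DMSO. Here the groups were far apart and their replicates close. Differences came to 2.28 ± 0.31, 1.99 ± 0.38 and 2.55 ± 0.35 (SE), that is 4.96-, 4.29- and 6.67-fold. On the deposited scale they ranked 2nd, 1st and 1st of the 14298 genes from the highest. Without both libraries that stood apart the asynchronous difference was 2.79 and the fold 9.40, and the part of the epithelial RNA in the smaller value was not tested.

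CDH10 encodes cadherin-10, a type II cadherin best known from the brain. In asynchronous cells CDH10 was at 7.26, 6.84 and 6.87 log2 in Nutlin libraries, from 140, 46 and 62 reads, against 5.75, 5.74 and 5.78 in DMSO libraries, from 11, 12 and 12 reads. In non-released cells CDH10 was at 7.87 and 8.12 with Nutlin, against 6.56 and 6.53 with DMSO. In S-phase cells CDH10 was at 7.31 and 7.37 with Nutlin, against 6.13, 5.98 and 5.93 with DMSO, the last 3 from 29, 7 and 17 reads. CDH10 had the lowest mean of the 10 genes in each DMSO group, and there its values are flattened most. Its differences were 1.24 ± 0.12, 1.45 ± 0.15 and 1.33 ± 0.14 on the deposited scale, while voom on the recovered reads gave 2.72, 2.19 and 2.42 on a log2 scale that is not flattened. Mean normalised reads were 6.67, 4.55 and 5.55 times as high with Nutlin in the asynchronous, non-released and S-phase state.

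The protocadherins PCDH17 and PCDH18 are close relatives within the delta-2 group, adhesion proteins that in neurons help axons and synapses to sort, and the Nutlin libraries moved in opposite directions for this pair. In asynchronous cells PCDH17 was at 9.28, 9.13 and 9.32 log2 with Nutlin, against 7.68, 7.77 and 7.70 with DMSO. In non-released cells PCDH17 was at 9.78 and 9.79 with Nutlin, against 8.49 and 8.43 with DMSO. In S-phase cells PCDH17 was at 9.18 and 9.24 with Nutlin, against 7.69, 7.87 and 7.85 with DMSO. Replicates lay close together in every group, and the differences, 1.53 ± 0.08, 1.32 ± 0.10 and 1.41 ± 0.09, were 3.52-, 2.78- and 3.16-fold. Of the exon bases of PCDH17, 7.9% overlap a gene on the opposite strand in GENCODE 29, and reads from the overlap cannot be assigned to either gene, since the sources used here give no strand for the counting.

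In asynchronous cells PCDH18 was at 6.46, 6.66 and 6.77 log2 with Nutlin, against 7.30, 7.25 and 6.92 with DMSO. In non-released cells PCDH18 was at 7.45 and 7.24 with Nutlin, against 8.49 and 8.28 with DMSO. In S-phase cells PCDH18 was at 6.97 and 6.95 with Nutlin, against 7.59, 7.58 and 7.60 with DMSO. Nutlin values were lower throughout, least clearly in asynchronous cells, where 0.15 separated the nearest libraries and the nearest DMSO library was again replicate 3. Its differences were −0.52 ± 0.12, −1.04 ± 0.15 and −0.63 ± 0.14, which leaves 0.55, 0.39 and 0.53 of the normalised reads with DMSO. Counted from the lowest, they ranked 198th, 2nd and 70th of 14298 genes.

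Of the ligands, EFNB1 encodes ephrin-B1, a transmembrane ligand of EphB receptors. In asynchronous cells EFNB1 was at 11.11, 11.12 and 11.16 log2 with Nutlin, against 9.43, 9.40 and 9.24 with DMSO. In non-released cells EFNB1 was at 10.92 and 11.19 with Nutlin, against 9.81 and 9.91 with DMSO. In S-phase cells EFNB1 was at 11.16 and 11.65 with Nutlin, against 9.89, 9.87 and 9.86 with DMSO. The widest gap within a group was that between the S-phase Nutlin replicates. Differences of 1.77 ± 0.11, 1.20 ± 0.14 and 1.53 ± 0.12 were 3.64-, 2.38- and 3.06-fold.

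RGMA encodes a glycolipid-anchored repulsive guidance molecule that binds neogenin and also serves as a co-receptor for bone morphogenetic proteins. In asynchronous cells RGMA was at 8.51, 8.59 and 8.67 log2 with Nutlin, against 6.84, 7.13 and 6.73 with DMSO. In non-released cells RGMA was at 9.10 and 9.18 with Nutlin, against 8.13 and 8.45 with DMSO. In S-phase cells RGMA was at 8.38 and 8.80 with Nutlin, against 7.23, 7.91 and 7.33 with DMSO. The highest of the S-phase DMSO values came from replicate 2, the shallow library, 0.63 above the mean of the other replicates. RGMA differed by 1.69 ± 0.17, 0.85 ± 0.21 and 1.1 ± 0.20, or 1.31 in S-phase cells without both libraries that stood apart, and the folds were 4.75, 1.96 and 2.56. Across states its ranges met: the lowest S-phase Nutlin library, at 8.38, lay below the highest non-released DMSO library, at 8.45.

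CSMD3 encodes a very large membrane protein of CUB and sushi domains, a gene expressed mainly in brain. In asynchronous cells CSMD3 was at 9.82, 9.52 and 9.52 log2 with Nutlin, against 7.81, 7.62 and 7.58 with DMSO. In non-released cells CSMD3 was at 10.27 and 10.35 with Nutlin, against 9.08 and 8.99 with DMSO. In S-phase cells CSMD3 was at 10.00 and 10.01 with Nutlin, against 8.76, 8.70 and 8.86 with DMSO. Replicates agreed closely in all groups. Differences were 1.94 ± 0.10, 1.27 ± 0.12 and 1.23 ± 0.11, or 4.86-, 2.59- and 2.54-fold, and the asynchronous one ranked 4th from the highest.

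Inside the membrane, PARD6G encodes PAR6 gamma, a scaffold of the polarity complex. In asynchronous cells PARD6G was at 11.51, 11.18 and 11.41 log2 with Nutlin, against 9.45, 9.40 and 9.08 with DMSO. In non-released cells PARD6G was at 11.61 and 11.83 with Nutlin, against 10.30 and 10.65 with DMSO. In S-phase cells PARD6G was at 11.40 and 11.87 with Nutlin, against 10.01, 10.22 and 10.01 with DMSO. Group means spanned 11.37 to 11.72 over the states with Nutlin and 9.31 to 10.48 with DMSO. Differences were 2.06 ± 0.15, 1.24 ± 0.18 and 1.56 ± 0.16, or 4.47-, 2.41- and 3.08-fold. A gene on the opposite strand overlaps 5.3% of its exon bases.

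RGL1 encodes an exchange factor that couples Ras to Ral. In asynchronous cells RGL1 was at 9.47, 9.26 and 9.41 log2 with Nutlin, against 8.18, 8.24 and 8.11 with DMSO. In non-released cells RGL1 was at 10.04 and 10.07 with Nutlin, against 9.08 and 9.07 with DMSO. In S-phase cells RGL1 was at 10.12 and 10.23 with Nutlin, against 8.70, 8.37 and 8.76 with DMSO. The lowest S-phase DMSO value was that of the shallow replicate 2. Differences of 1.20 ± 0.10, 0.98 ± 0.13 and 1.56 ± 0.12 were 2.60-, 2.09- and 3.25-fold, with S-phase the largest.

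GPR172B is the only transporter of the group. It encodes a plasma membrane carrier of riboflavin, the vitamin from which flavin cofactors are made. In asynchronous cells GPR172B was at 7.63, 7.37 and 7.51 log2 with Nutlin, from 200, 81 and 121 reads, against 5.82, 6.01 and 5.74 with DMSO, from 13, 21 and 11 reads. In non-released cells GPR172B was at 9.25 and 9.38 with Nutlin, against 7.51 and 7.75 with DMSO. In S-phase cells GPR172B was at 8.11 and 8.44 with Nutlin, against 6.54, 5.98 and 6.51 with DMSO. The lowest of these, replicate 2, rests on 7 reads. Differences were 1.65 ± 0.15, 1.69 ± 0.19 and 1.93 ± 0.17, and mean normalised reads were 8.78, 4.01 and 7.34 times as high with Nutlin. By voom the differences came to 3.14, 2.00 and 2.75, so that the order of the states by size differs between the flattened and the unflattened scale.

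**Figure D2:**
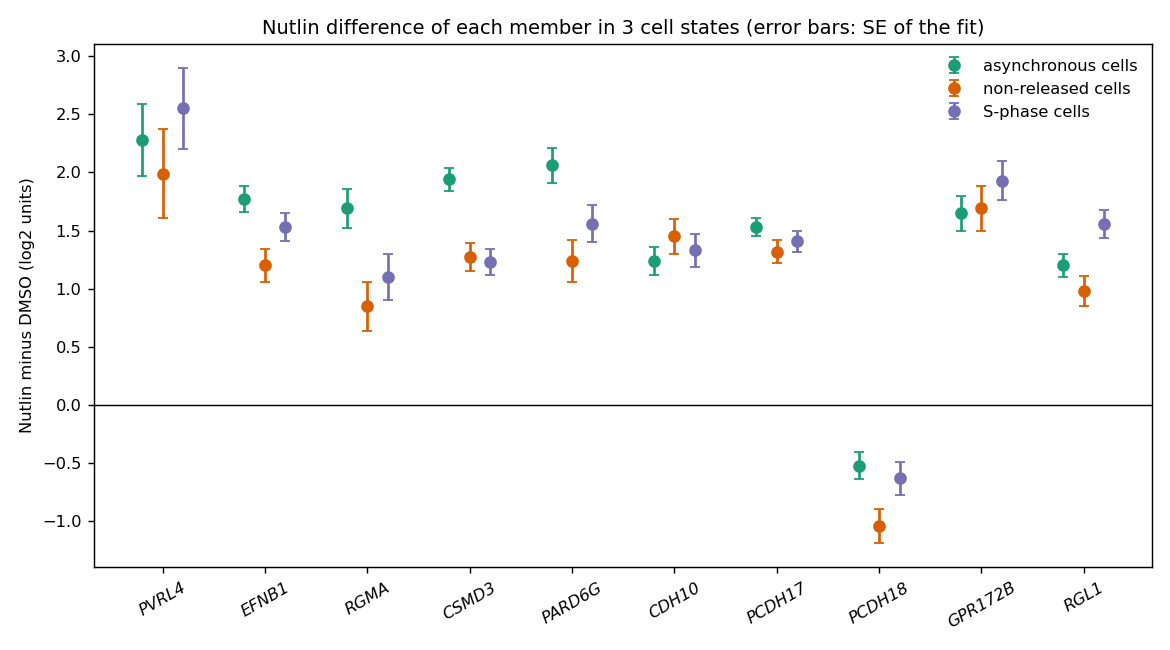
Nutlin minus DMSO difference of each gene (vertical axis, log2 units, with SE bars) in each of the 3 states. PVRL4 lies highest in each state, at 2.28, 1.99 and 2.55, and only PCDH18 lies below 0, at −0.52, −1.04 and −0.63.

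Over all states, the lowest Nutlin library of any state lay above the highest DMSO library of any state for 7 genes: PVRL4, EFNB1, CSMD3, PARD6G, CDH10, PCDH17 and RGL1. For the other 3, RGMA, GPR172B and PCDH18, the ranges overlapped across states. The picking favoured such gaps, and their share over all genes was not counted, so nothing is read from this count. The largest of the 3 differences in absolute size was that of asynchronous cells for 5 genes, of S-phase cells for 3 and of non-released cells for 2 on the deposited scale. By voom these counts were 7, 2 and 1, with CDH10 and GPR172B largest in asynchronous cells. Without both libraries that stood apart they were 6, 2 and 2, with PVRL4 largest in asynchronous cells (2.79, against 2.50 in S-phase cells). Whether the differences differ between states was not tested.

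Compared per length, as reads per kilobase of GENCODE exon per M assigned reads, the members spanned a wide range. In non-released Nutlin libraries PARD6G averaged 52.6, EFNB1 41.3 and PVRL4 41.2, against 22.1, 17.6 and 9.74 in the non-released DMSO libraries. RGL1 (12.5) and GPR172B (10.3) followed in the Nutlin libraries, with 5.95 for CSMD3 and 6.59 for PCDH17. CDH10 averaged 3.87, RGMA 2.64 and PCDH18 1.22 there, against 0.861, 1.36 and 3.15 in the DMSO libraries. PCDH18 thus came last of the 10 with Nutlin, while with DMSO it lay above CDH10, RGMA, CSMD3 (2.33), PCDH17 (2.41) and GPR172B (2.60).

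In DMSO asynchronous replicate 3, in which CDKN1A was 2.64 and MDM2 2.29 above the mean of the other DMSO replicates, none of the 10 genes reached the range of the Nutlin libraries. Leaving PVRL4 aside, the members there were between 0.35 below and 0.04 above the other DMSO replicates. PCDH18 and PARD6G had the lowest of these differences, each at −0.35.

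**Figure D3:**
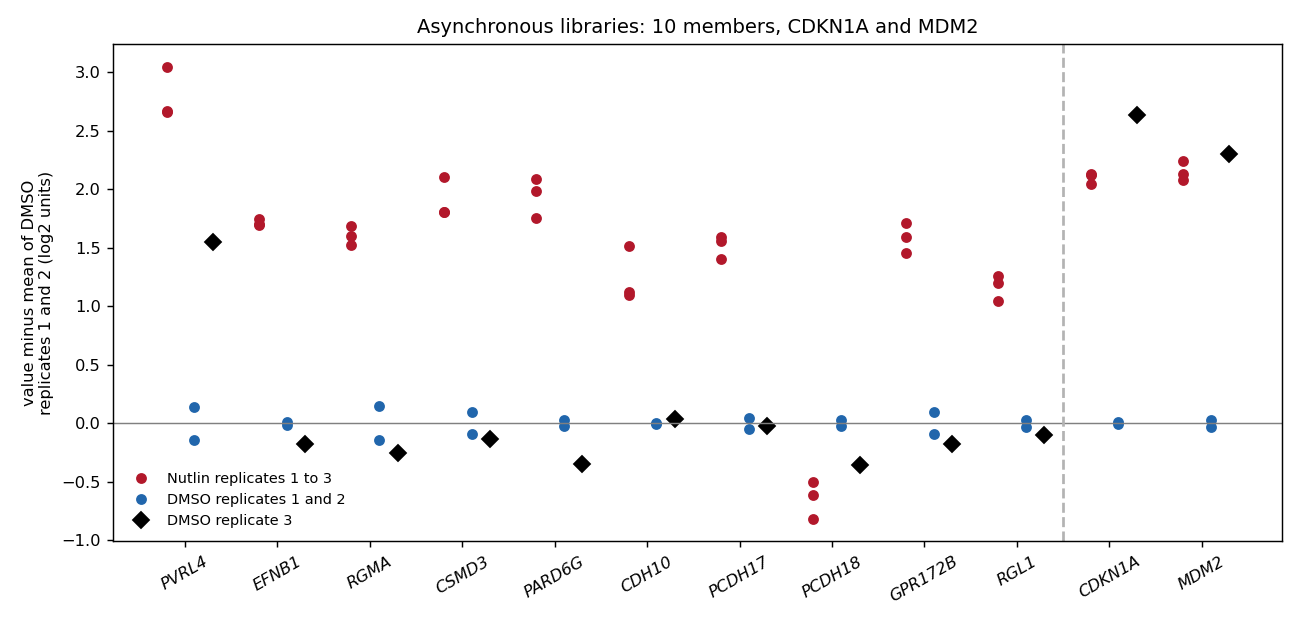
Level of the 10 genes and of CDKN1A and MDM2 in the 3 Nutlin and 3 DMSO libraries of asynchronous cells, with DMSO replicate 3 marked apart. The vertical axis is the log2 value minus the mean of DMSO replicates 1 and 2. The marked library lies above the Nutlin points for CDKN1A (2.64) and MDM2 (2.29). It lies outside them for all 10 genes, with PVRL4 at 1.55, between the Nutlin points and the other DMSO points.

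The rule did not use the differences between states, and these were tested. Each is the mean of the Nutlin and the DMSO difference, with adjusted p-values from limma over all 14298 genes. Such a mean is uncorrelated with the Nutlin difference of a state that has equal numbers of Nutlin and DMSO libraries, and nearly so in S-phase. In non-released against asynchronous cells, 9 of the 10 genes rose and EFNB1 did not pass the test, though it passed with any 1 of 3 Nutlin libraries left out, as given below. The median of the 10 was 0.93, against 0.00 over all genes, of which 25.7% were called higher and 25.3% lower. In S-phase against asynchronous cells 8 rose, with a median of 0.46 against −0.01 over all genes, of which 21.7% were called higher and 20.6% lower. In S-phase against non-released cells 6 fell and the other 4 did not pass, with a median of −0.44 against 0.00 over all genes, of which 7.68% were called higher and 6.69% lower. The 3 counts were the same without both libraries that stood apart, and the non-released libraries (and the others) enter more than 1 of these comparisons.

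The riboflavin carrier gene GPR172B had the largest differences of the 10 between non-released cells and either other state. It was 1.79 ± 0.12 (SE) higher in non-released than in asynchronous cells (adjusted p = 1.95e-07), by 1.81 in Nutlin and 1.77 in DMSO libraries. From there it fell by 1.16 ± 0.13 in S-phase cells (adjusted p = 5.88e-05), yet stayed 0.63 ± 0.12 above asynchronous cells (adjusted p = 0.000746). Its group means were 7.50, 9.32 and 8.27 log2 with Nutlin and 5.86, 7.63 and 6.34 with DMSO in asynchronous cells, non-released cells and S-phase cells. The low DMSO values are flattened, so the like steps of 1.81 and 1.77 hold on the deposited scale only. Mean normalised reads went from 129 in asynchronous to 582 in non-released cells with Nutlin, and from 14.6 to 145 with DMSO. By voom the 3 state differences of GPR172B, in the order given above, were 2.72, −1.58 and 1.14.

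Among the adhesion genes PCDH17, PCDH18 and CDH10 followed a similar course, high in the block and lower after release. PCDH18 rose by 0.97 ± 0.10 in non-released cells (adjusted p = 3.36e-06) and was 0.59 ± 0.10 lower in S-phase than in non-released cells (adjusted p = 0.00174). Against asynchronous cells it was still 0.38 ± 0.09 higher in S-phase (adjusted p = 0.00443). The same 2 steps for PCDH17 were 0.64 ± 0.07 (adjusted p = 5.07e-06) and −0.62 ± 0.07 (adjusted p = 8.68e-05), and its S-phase and asynchronous levels differed by 0.03 ± 0.06 (adjusted p = 0.759). CDH10 was 0.90 ± 0.10 higher in non-released than in asynchronous cells (adjusted p = 5.89e-06) and 0.59 ± 0.10 lower in S-phase than in non-released cells (adjusted p = 0.00162). By voom, on the scale that is not flattened, these steps of CDH10 were 1.63 and −1.0. The pair of protocadherins that Nutlin libraries set apart thus moved the same way between states.

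PVRL4 was 0.98 ± 0.25 higher in non-released (adjusted p = 0.00446) and 0.75 ± 0.23 higher in S-phase cells (adjusted p = 0.0193), each against asynchronous cells. Without both libraries that stood apart these differences were 1.24 (adjusted p = 2.69e-07) and 1.04 (adjusted p = 3.5e-06) in limma. The S-phase call was lost without Nutlin S-phase replicate 2 (0.66, adjusted p = 0.0867), as was that of CDH10 (0.31 ± 0.09, adjusted p = 0.0149 with all libraries, 0.29 and 0.0516 without it). S-phase and non-released cells differed for PVRL4 by −0.23 ± 0.26 (adjusted p = 0.638).

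The guidance gene RGMA was 0.97 ± 0.14 higher in non-released than in asynchronous cells (adjusted p = 6.66e-05), by 0.55 in Nutlin and 1.39 in DMSO libraries. It fell by 0.68 ± 0.14 in S-phase against non-released cells (adjusted p = 0.00702). In S-phase against asynchronous cells RGMA differed by 0.29 ± 0.13 (adjusted p = 0.0896), by 0.00 in Nutlin and 0.59 in DMSO libraries, and passed without DMSO S-phase replicate 1 (adjusted p = 0.0492). EFNB1 differed by 0.21 ± 0.09 in non-released against asynchronous cells (adjusted p = 0.0576), with −0.08 in Nutlin and 0.50 in DMSO libraries. It passed there without Nutlin non-released replicate 1, Nutlin S-phase replicate 1 or Nutlin S-phase replicate 2 (adjusted p 0.0178 to 0.0354). Without Nutlin S-phase replicate 1 its S-phase minus non-released difference passed too (0.30, adjusted p = 0.0267), against 0.18 ± 0.09 with all libraries (adjusted p = 0.213). It was 0.40 ± 0.08 higher in S-phase than in asynchronous cells (adjusted p = 0.0019).

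CSMD3 rose by 1.03 ± 0.08 in non-released (adjusted p = 4.24e-07) and by 0.74 ± 0.07 in S-phase cells (adjusted p = 7.58e-06), each against asynchronous cells. These steps were 0.69 and 0.39 in Nutlin libraries and 1.37 and 1.1 in DMSO libraries. Its S-phase level was 0.29 ± 0.08 lower than its non-released level (adjusted p = 0.0328), a call that any 1 of 7 libraries left out removed: both Nutlin and both DMSO non-released libraries, both Nutlin S-phase libraries and DMSO S-phase replicate 1 (adjusted p 0.0611 to 0.122). PARD6G was 0.76 ± 0.12 higher in non-released (adjusted p = 0.000108) and 0.52 ± 0.11 higher in S-phase cells (adjusted p = 0.00192), each against asynchronous cells. In Nutlin libraries alone PARD6G differed by 0.35 ± 0.16 and 0.27 ± 0.16, and in DMSO libraries alone by 1.17 ± 0.16 and 0.77 ± 0.15. RGL1 rose by 0.79 ± 0.08 (adjusted p = 4.55e-06) and 0.62 ± 0.08 (adjusted p = 4.39e-05) in the same 2 comparisons. S-phase minus non-released was −0.24 ± 0.12 for PARD6G and −0.17 ± 0.09 for RGL1 (adjusted p = 0.212 and 0.202).

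**Figure D4:**
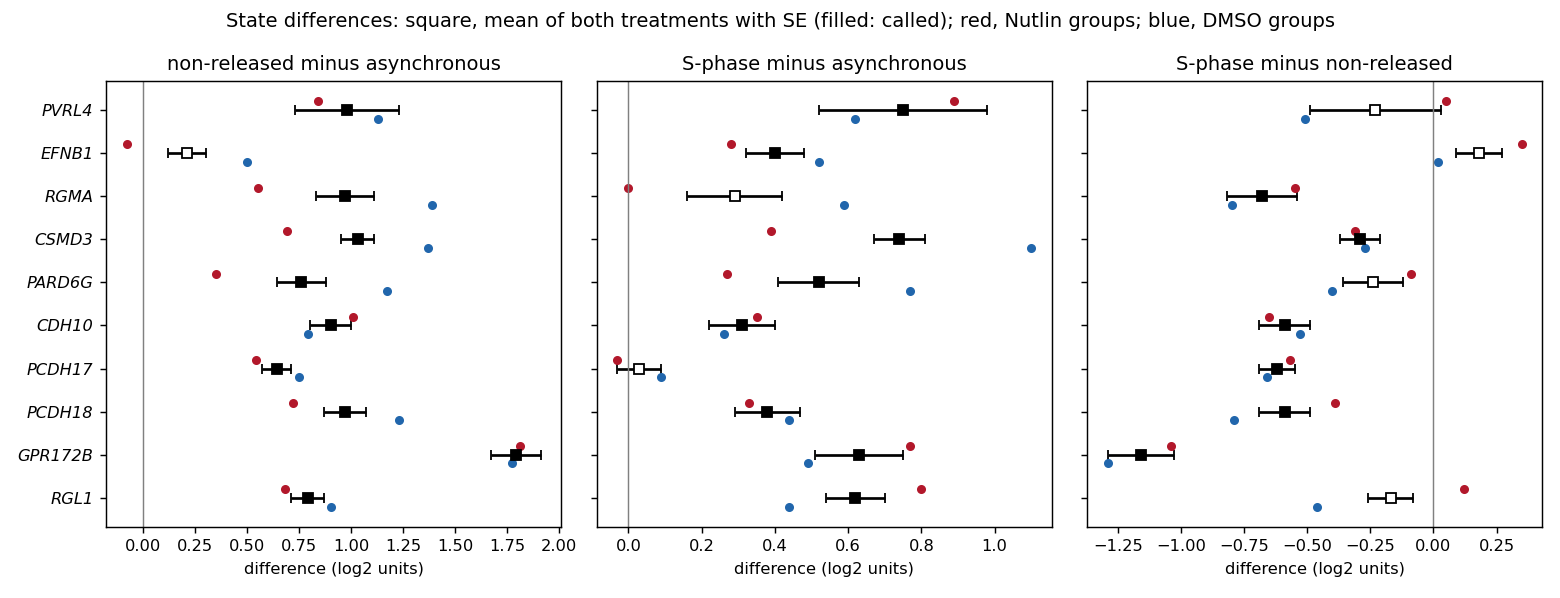
Differences between states for each gene (horizontal axis, log2 units, mean of Nutlin and DMSO groups with SE bars), filled where the adjusted p was under 0.05. Non-released minus asynchronous lies right of 0 for all 10, up to 1.79 for GPR172B, and S-phase minus non-released lies left of 0 for all but EFNB1.

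By treatment, the DMSO asynchronous group had the lowest of the 3 DMSO means for all 10 genes, and the DMSO non-released group the highest for 9, with EFNB1 highest in S-phase at 9.87 against 9.86. Among the Nutlin groups, non-released cells were highest for 7 genes and S-phase cells for PVRL4, EFNB1 and RGL1. Means of either treatment also enter the Nutlin differences by which the genes were picked. Shares over all genes were not counted for these orders, so nothing is read from the counts. Neighbouring Nutlin means often differed by less than their spread, such as 11.18 ± 0.26 in S-phase and 11.13 ± 0.14 in non-released cells for PVRL4 (SD, n = 2 each). On the deposited scale the difference between non-released and asynchronous cells was larger in DMSO than in Nutlin groups for 8 of the 10 genes, all but CDH10 and GPR172B. The count depends on the scale, since the low DMSO values of these genes are flattened. From asynchronous to non-released cells mean normalised reads of CDH10 went from 77.0 to 202 with Nutlin and from 11.5 to 44.3 with DMSO. Those of GPR172B went from 129 to 582 and from 14.6 to 145. The contrast between treatments was not tested, since it is the Nutlin difference compared between states, which the rule had used.

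Related genes were taken from 9 lists: nectins, ephrins and Eph receptors, RGM with neogenin and netrin receptors, CSMD relatives, polarity genes, cadherins and catenins, non-clustered protocadherins with Fat cadherins, riboflavin genes, and Ral with its exchange factors and partners. Without the 10 genes, 104 of their members were tested. With Nutlin, 2 were higher and 1 lower in asynchronous cells (1.92% and 0.962%), where the shares over all genes were 1.91% and 0.546%. In non-released cells 1 was higher (0.962%, beside 0.874% over all genes). In S-phase cells limma called 0 of the 104, beside 1.84% higher and 0.161% lower over all genes, with 15 of the 104 at an unadjusted p under 0.05, and voom called 0 too. Medians over the 104 were −0.07, −0.04 and −0.04, against −0.02, −0.02 and −0.01 over all genes tested.

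EPHA2, an ephrin-A receptor and the one called in 2 states, averaged 12.98 log2 with Nutlin and 12.33 with DMSO in asynchronous cells (0.66 ± 0.11, adjusted p = 0.0031). In non-released cells it averaged 12.37 with Nutlin and 11.40 with DMSO (0.97 ± 0.13, adjusted p = 0.00256), a call lost without Nutlin non-released replicate 2 (adjusted p = 0.0635). Its S-phase difference was 0.41 (adjusted p = 0.119). NTN1, which encodes the guidance cue netrin-1, was 0.67 ± 0.16 higher in asynchronous cells (adjusted p = 0.0374), and EFNA3, an ephrin-A gene, was 0.48 ± 0.12 lower (−0.48, adjusted p = 0.0422). These 2 calls were lost without any 1 of 6 libraries for NTN1 and any 1 of 12 for EFNA3, with adjusted p up to 0.129 and 0.216. Without both libraries that stood apart, related genes called higher were 5, 3 and 5 of 103 (4.85%, 2.91% and 4.85%), beside 3.78%, 2.81% and 3.40% of all genes tested in that setting. In asynchronous cells 2 were called lower (1.94%, beside 2.48%). EPHA2 was among the higher ones in each state, as was PARD6B, which encodes a relative of PAR6 gamma. The Ral pathway genes RALGDS and RALGAPB were higher in asynchronous cells, RALGDS also in S-phase and RALGAPB also in non-released cells. NTN1 was called in asynchronous and S-phase cells (0.64 and 0.67, adjusted p = 0.0149 and 0.0266 in limma), and UNC5B in S-phase cells. PARD6B, RALGDS, RALGAPB and UNC5B are named here after their values were seen.

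List medians of the Nutlin differences lay between −0.16 and 0.25. For the 7 tested nectin relatives of PVRL4 they were 0.02, −0.03 and −0.15. The 3 tested CSMD relatives had medians of 0.25, 0.08 and −0.06, and the 3 tested riboflavin genes 0.00, −0.08 and −0.01. Medians were −0.11, −0.09 and −0.11 for the 16 tested ephrin and Eph genes. They were −0.16, −0.03 and −0.11 for the 15 tested genes of the RGM, neogenin and netrin list. For the 13 tested protocadherin and Fat genes the medians were −0.16, −0.04 and −0.13, for the 18 tested cadherins and catenins 0.03, −0.06 and 0.00, for the 14 polarity genes −0.05, −0.02 and −0.01, and for the 15 Ral genes −0.03, −0.03 and 0.16. Between states, 32 of the 104 were higher and 21 lower in non-released than in asynchronous cells (30.8% and 20.2%), beside 25.7% and 25.3% over all genes. In S-phase against asynchronous cells these were 36 and 14 (34.6% and 13.5%), beside 21.7% and 20.6% over all genes. In S-phase against non-released cells they were 11 and 7 (10.6% and 6.73%), beside 7.68% and 6.69%. Ephrins and Eph receptors held 8 that were higher and 3 that were lower in non-released cells, of 16 tested, with a median of 0.32.

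Likeness was measured as Pearson's r over the 15 libraries, which come from 6 groups and differ in depth, and is given as a description. Nutlin and DMSO libraries both enter it. Picking genes for large Nutlin differences thus favours high r between genes that move the same way with Nutlin, and low r with PCDH18. Nothing beyond the picking is read from these values. Of the genes outside the 10, PVRL4 was most like TP53I3 (0.979) and ACER2 (0.972), and EFNB1 most like RBM38 (0.976) and INPP5D (0.972). TRIM22 was the nearest to both CSMD3 (0.985) and PARD6G (0.984), with SLC44A5 (0.980) next for CSMD3 and PIDD (0.974) for PARD6G. CDH10 was nearest to WDR63 (0.980) and FAM19A2 (0.971), PCDH17 to RNF19B (0.977) and FAM198B (0.969), and RGL1 to TFEC (0.979) and FAM169A (0.977). RGMA was nearest to PAPLN (0.969) and ARVCF (0.957), and GPR172B to LOC375010 (0.973) and TNFSF9 (0.970). PCDH18 had the lowest top values, 0.950 with DENND5B and 0.937 with CBX2. Among the members themselves, the 36 pairs without PCDH18 ran from 0.799 (EFNB1 and GPR172B) to 0.970 (CSMD3 and PARD6G), and the 9 pairs with PCDH18 from −0.508 (EFNB1) to −0.042 (GPR172B).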

How the data were processed

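RNA was sequenced as single reads of 50 nt from TruSeq libraries made with 1000 ng of RNA, per the labels' protocols. The authors deposited 1 table of variance-stabilised log2 values for 23368 genes in 15 libraries. Tools named, without their roles, in the submitters' processing notes are DESeq2 1.10.1, HTSeq, TopHat 0.9 and CASAVA 1.8.2, with build hg19. Annotation and strand: not given in the sources used here. In the labels the prefix of the Nutlin dose is missing, and micromolar is assumed. Flattening at low reads makes differences of low genes look smaller.

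Reads were recovered by inverting the transformation. Of non-zero values, 99.87% or more in 14 libraries, and 99.04% in DMSO S-phase replicate 3, lay within 0.05 of a whole read. Depth was 6.05 to 23.38 M reads, against 30 planned, and sets the counting error of low genes such as CDH10. Replicates were no copies of each other.

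limma 3.58.1 in R 4.3.3 was fitted to the deposited log2 values with 1 mean per group over all 15 libraries (mean-variance trend, prior degrees of freedom 4.66, two-sided, Benjamini-Hochberg adjustment within each comparison, calls at adjusted p under 0.05). Tests covered the 14298 genes that exceeded the lowest value by 1 unit or more in 2 or more libraries. The fit was tested on simulated data. Alternatives were 2 other filters, voom on recovered reads, median centring, the compared groups alone, a replicate block, 1 treatment alone, and leaving out libraries.

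Members, lists and alternatives were chosen with earlier results of these data known. Named genes are the 10 members, list genes called with Nutlin (at most 3 per list), the 2 genes most like each member, and CDKN1A, MDM2, KRT19, CDH1 and EPCAM. VIM, SPARC, COL1A2 were taken from the marker lists. Overlaps and lengths come from GENCODE 29 on GRCh38, another build than that of the files, so the only coordinates given are those of the RefSeq promoters.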

Additional observations from a re-analysis of the deposited data

How the results depend on the processing

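All 30 Nutlin differences of the 10 genes kept their sign in every setting and with each library left out. Between states, limma called 25.7% of all genes tested higher and 25.3% lower in non-released against asynchronous cells. These shares were 21.7% and 20.6% in S-phase against asynchronous cells, and 7.68% and 6.69% in S-phase against non-released cells. Each of these comparisons follows from the others, so the state differences of a gene are not separate results. Of the 30 state differences of the 10 genes, 23 were called. The count was 23 or 24 under other filters, scaling, voom and without both libraries that stood apart, 21 to 24 with 1 library left out, 23 in DMSO groups alone and 13 in Nutlin groups alone. The means of 1 treatment alone also enter the Nutlin differences by which the genes were picked. Nothing is therefore read from the counts in DMSO or Nutlin groups alone, for which no share over all genes is given. In Nutlin groups alone the sign turned for EFNB1 non-released minus asynchronous (−0.08), for PCDH17 (−0.03) and RGMA (0.00) S-phase minus asynchronous, and for PVRL4 (0.05) and RGL1 (0.12) S-phase minus non-released, as it did for PCDH17 S-phase minus asynchronous without Nutlin asynchronous replicate 2 (0.00; 0.00 to 0.06 with 1 library left out). None of these 5 gene differences was called with all libraries, and the cause was not tested.

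Genes called with Nutlin numbered 351 in asynchronous, 131 in non-released and 286 in S-phase cells. Without both libraries that stood apart they were 888 (536 higher, 352 lower), 459 and 564. With the compared groups alone they were 209, 623 and 101, and voom gave 227 in non-released cells. With 1 library left out they ran from 171 to 525, from 22 to 274 and from 88 to 466. S-phase against non-released cells gave 2054 genes, 3982 without both libraries, and 1080 to 2750 with 1 left out. The other 2 state comparisons gave 7288 (6055 to 8143) and 6055 (4902 to 6603). The stricter filter gave 2311 higher and 3296 lower in non-released against asynchronous cells and 2050 and 2710 in S-phase against asynchronous cells.

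The labels number replicates without saying that numbers pair samples. Same-numbered Nutlin and DMSO libraries deviated together with r of 0.313, 0.136 and 0.074 in asynchronous, 0.325 in non-released and 0.341 and 0.351 in S-phase cells, the asynchronous value of 0.074 being under the limit of 0.1 set for all pairs. Not every library was most like the one with its own number: Nutlin asynchronous replicate 3 correlated best with DMSO replicate 2 (0.221). Unlike-numbered asynchronous pairs ran from −0.322 to 0.221. The pair under the limit holds DMSO asynchronous replicate 3, which stood apart. Deviations are from group means, so the unlike-numbered non-released value (−0.325) mirrors the same-numbered one by construction. The same holds in S-phase cells, which have 2 Nutlin libraries. There DMSO replicate 1 had −0.341 with Nutlin replicate 2, and DMSO replicate 2 had −0.351 with Nutlin replicate 1. DMSO replicate 3 had 0.27 and −0.27 with Nutlin replicates 1 and 2. Because the asynchronous pair of 0.074 lay under the limit and the labels name no pairs, the numbers were not taken to pair the libraries. The values do not settle whether they do. A replicate block gave 397, 166 and 324 genes with Nutlin, 7354, 6212 and 2395 between states, and 24 calls among the state differences of the 10 genes, the added one being RGMA in S-phase against asynchronous cells (adjusted p = 0.0428 in limma). Depth limits CDH10 and GPR172B most, at 7 to 53 reads in S-phase DMSO libraries.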
